A study of Mus musculus with 2 samples.

Results

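The 171 nuclear genes described here encode the proteins of the mitochondrial ribosome and of the respiratory chain, and were followed in a DNase-seq map of the mouse embryonic midbrain. They were chosen by symbol alone from 21911 named protein-coding genes: Mrpl or Mrps with a number, Nduf, Uqcr, Atp5, Cox4 to Cox8, and Sdha to Sdhd. DNase-seq counts cuts made by DNase I, a nuclease that reaches DNA not packed into nucleosomes, so that promoters and enhancers in use stand out as short peaks. All samples were healthy midbrain tissue of strain B6NCrl embryos at 14.5 days, pooled from males and females, with no treatment and no other tissue or age for comparison. The study had 1 group of 2 biological replicates, which the labels list as separate biosamples under 1 donor entry. Differences between the libraries may therefore hold a technical part. How many embryos were pooled is not stated in the labels.

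Mitochondria make most of a cell's ATP by passing electrons from NADH and succinate through complexes I to IV of the inner membrane and using the resulting proton gradient to drive complex V, the ATP synthase. A few catalytic subunits of complexes I, III, IV and V are encoded by mitochondrial DNA and made on a dedicated ribosome, whose proteins all come from nuclear genes, while complex II is wholly nuclear-encoded. The nuclear genes are spread over many chromosomes and most lie behind CpG-rich promoters, where NRF1, the ETS-family factor GABP (also called NRF2) and YY1 are well-known regulators. Several subunits of cytochrome c oxidase (complex IV) exist as pairs, a form made in nearly all tissues and a form restricted to muscle, testis or a few other cell types.

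The 2 libraries differed widely and were ranked separately for this reason. Replicate 1 held 710176 peaks with a median value of 6, of which 24.7% overlapped a peak of replicate 2, and replicate 2 held 267958 peaks with a median value of 51, of which 64.0% overlapped a peak of replicate 1. The value of a peak is the authors' own signal, a whole number of at most 150 in both libraries, and it says nothing of read depth, which is unknown. Promoter peaks stood at all 6 midbrain markers in both replicates (En1, En2, Otx2, Pax5, Lmx1b and Pou4f1), at all 3 neuronal markers and at all 3 progenitor markers. In bulk tissue a site open in few cells and a site weakly open in many cannot be told apart.

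Nearly every gene of the respiratory chain and of the mitochondrial ribosome had an open promoter in the midbrain. A promoter was counted as open when a peak present in both replicates lay within 1000 bp of any annotated start of the gene. This held for 167 of 171 members, against 69% of all protein-coding genes. In replicate 1 alone 168 members had a promoter peak, against 75.8% of all genes, and in replicate 2 alone 168 had one, against 72.5%. All 163 genes of the general, constitutively used set were open, and the exceptions were 4 of the 8 tissue-restricted isoform genes, Cox4i2, Cox6a2, Cox7b2 and Cox8b. Many CpG-rich promoters were open in any case: among other genes whose CpG content lay between the quartiles of the constitutive members, 97.1% had a shared promoter peak.

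The constitutive promoters varied in strength but seldom had low values. Their strongest peaks had values of 56 to 138 in replicate 1 (median 102) and of 108 to 149 in replicate 2 (median 141). The medians over all genes with a promoter peak were 86 and 136. CpG-like genes came close to the members, with medians of 97 and 139, but reached lower: their lower quartiles were 70 and 127, against 93 and 136.5 for the members. Each peak was also ranked among all peaks of its library, and the mean of both percentiles ran from 92.95 to 99.94 with a median of 98.53, beside 98.17 for the CpG-like genes.

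When genes rather than peaks were ranked, most members lay above the middle of the scale. On this scale 100 is the gene with the strongest promoter peak, and genes with no promoter peak share the lowest place. The constitutive genes had a median of 73.6 and a range of 45.2 to 99.5. Of them 157 lay in the upper 50% of genes (96.3%, against a background of 50% and 78.8% of the CpG-like genes). In the top 10% there were 16 (9.82%), a share close to the 9.97% of all genes and below the 13.1% of the CpG-like genes. The count moved with the library: without replicate 2, 25 of 171 members (14.6%) were in the top 10%, against 10.5% of all genes. The 85 genes of the cytosolic ribosome, which makes all nuclear-encoded proteins, reached further up, with a median of 81.5 and 28 genes (32.9%) in the top 10%. None of these differences was tested, since genes of 1 tissue are not replicates of it.

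**Figure D1:**
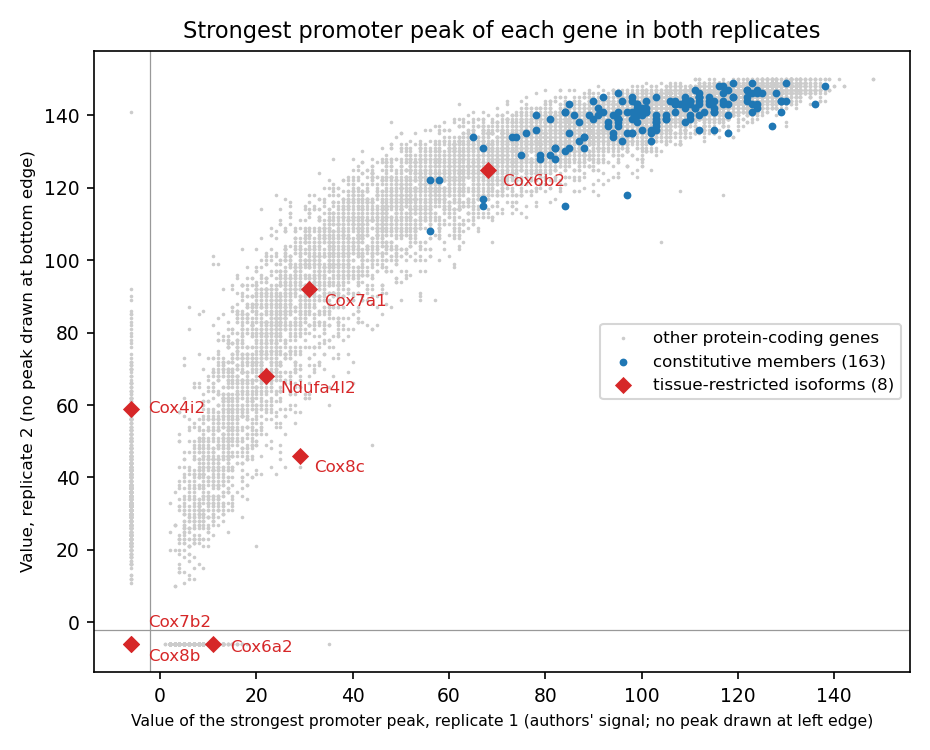
Value of the strongest promoter peak of each protein-coding gene in replicate 1 (horizontal) and replicate 2 (vertical), in the authors' signal units, with genes that have no peak drawn at the edges. The 163 constitutive members (blue) sit at 56 or more in replicate 1 and 108 or more in replicate 2, and of the 8 tissue-restricted isoforms (red) Cox6b2 alone lies among them.

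The order of the members was less well held between libraries than that of genes at large. Across the 163 constitutive genes the Spearman correlation of both replicates' values was 0.704, and across 15310 genes with a peak in both it was 0.935. These points share 2 libraries and the members span only the upper part of the scale. Small differences in rank among the members are therefore within what separates the replicates. In 5 of the 163 constitutive genes, Ndufa13, Ndufs7, Ndufb11, Mrpl54 and Mrpl27, the strongest peaks of the replicates did not overlap, although each had a shared peak. The same held for 1378 of 15109 open genes and for 374 of 4361 open CpG-like genes, both larger shares. By this measure the members did not differ more between libraries than genes at large.

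All 49 genes with Mrpl symbols were open. They are grouped here, by symbol, as the large subunit of the mitochondrial ribosome, the subunit that joins amino acids into protein. Their values had medians of 101 and 139 in replicates 1 and 2. Mrpl48 had the highest rank of all members (99.5), with 130 in replicate 1 and 149 in replicate 2, and its peak at chr7:100607516-100607665 was centred 47.5 bp downstream of an annotated start. Mrpl18 reached 138 and 148, the highest replicate 1 value among all members. Mrpl12, a protein of the ribosomal stalk where translation factors bind, had 117 and 148. These 3 genes were high in both libraries.

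The large subunit also held some of the weakest constitutive promoters. Mrpl3 and Mrpl27 encode relatives of bacterial proteins that lie near the catalytic centre of the ribosome. Mrpl27 had values of 67 and 117, and Mrpl3 had 67 and 115, in replicates 1 and 2. Both ranked just under the middle of all genes, at 48.9 and 48.1, and 45 of the 49 large-subunit genes ranked above the middle.

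The 29 genes with Mrps symbols were all open and all in the upper 50% of genes. They are grouped here as the small subunit, which reads the messenger RNA. Symbols alone placed genes in this group, and the place of each protein was not checked. Medians of the group were 97 and 141. Mrps16 had 123 in replicate 1 and 149 in replicate 2, Mrps9 had 124 and 147, and Mrps12, which lines the decoding centre, had 122 and 145. The lowest were Mrps6 with 88 and 134 and Mrps5 with 65 and 134. Replicate 2 thus put these last genes level, while replicate 1 kept them well apart.

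Complex I, the NADH dehydrogenase, is the largest enzyme of the chain, and all 37 of its subunit genes were open, with medians of 105 and 141. Ndufa2, an accessory subunit, had 119 in replicate 1 and 149 in replicate 2. Ndufv2, an iron-sulfur subunit of the NADH-oxidising tip, had 117 and 146. The lowest were both accessory subunits of the membrane arm encoded on the X chromosome. Ndufa1 had 75 and 129, and Ndufb11 had 56 and 108, the weakest promoter among the constitutive members, at rank 45.2. The third X-linked member, Cox7b, was also among the lowest of its complex (73 and 134). Both X-linked complex I genes had 3 or more shared peaks within 1000 bp of their single start.

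Complex I is built in steps by assembly factors that leave the finished enzyme, and all 8 such genes under the Ndufaf symbols were open (medians 103 and 141). Ndufaf3 had 112 and 145. Ndufaf7, a methyltransferase, had 112 and 144, and Ndufaf8 had 123 and 141. Ndufaf6 was lower with 79 and 128, and Ndufaf1, an early scaffold of the membrane arm, was the lowest with 58 and 122. Ndufaf1 was the only assembly factor in the lower 50% of genes, at rank 49.8.

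Succinate dehydrogenase, complex II, is the enzyme shared by the citric acid cycle and the respiratory chain. Its 4 genes, the smallest group, were all open. Sdhb, the iron-sulfur subunit, had 112 and 145 in replicates 1 and 2. The membrane anchors Sdhd and Sdhc had 118 and 143 and 101 and 142, respectively. Sdha, the flavoprotein, had 110 and 140. Ranks of the 4 genes ran from 74.0 to 86.9 (median 79.6). This was the narrowest range of any group, but a range tends to be narrow where genes are few. The quartiles were 75.5 and 84.0, beside 73.6 and 83.5 in the 17 genes of complex V.

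Complex III passes electrons from ubiquinol to cytochrome c, and all 8 of its genes lay in the upper 50% of genes (medians 101.5 and 140). Uqcrh, the hinge protein, had 111 and 147, from a peak centred at -339.5 bp from its nearest start (a minus sign means upstream) and next to the divergent gene Lrrc41. Uqcrfs1, the Rieske iron-sulfur protein, had 115 and 142, and Uqcrq had 118 and 140. Uqcrb had 96 and 133. Uqcrc1, a core protein, combined 97 in replicate 1 with 118 in replicate 2, the lowest replicate 2 value of the complex.

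Complexes IV and V had the highest median ranks among all genes, 81.4 and 80.4, followed by complex II, and the remaining groups had medians of 70.4 to 75.5. Ranges overlapped widely between all groups, and the order of their medians was not tested. In complex IV, which reduces oxygen, all 11 constitutive genes were open, with medians of 110 and 143. Cox7a2 had 116 and 148, Cox4i1 had 119 and 145, and Cox6a1 had 123 and 143. The lowest were Cox7b and Cox6c, the latter with 82 and 128. In the ATP synthase all 17 genes were in the upper 50% (medians 110 and 143). Atp5f1, of the peripheral stalk, had 125 and 146, Atp5d, of the central stalk, had 123 and 146, and Atp5g1, of the membrane ring, had 130 and 144. Atp5l had 94 and 135. Atp5a1, which encodes the alpha subunit of the catalytic head, was the lowest of the complex with 85 and 131.

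**Figure D2:**
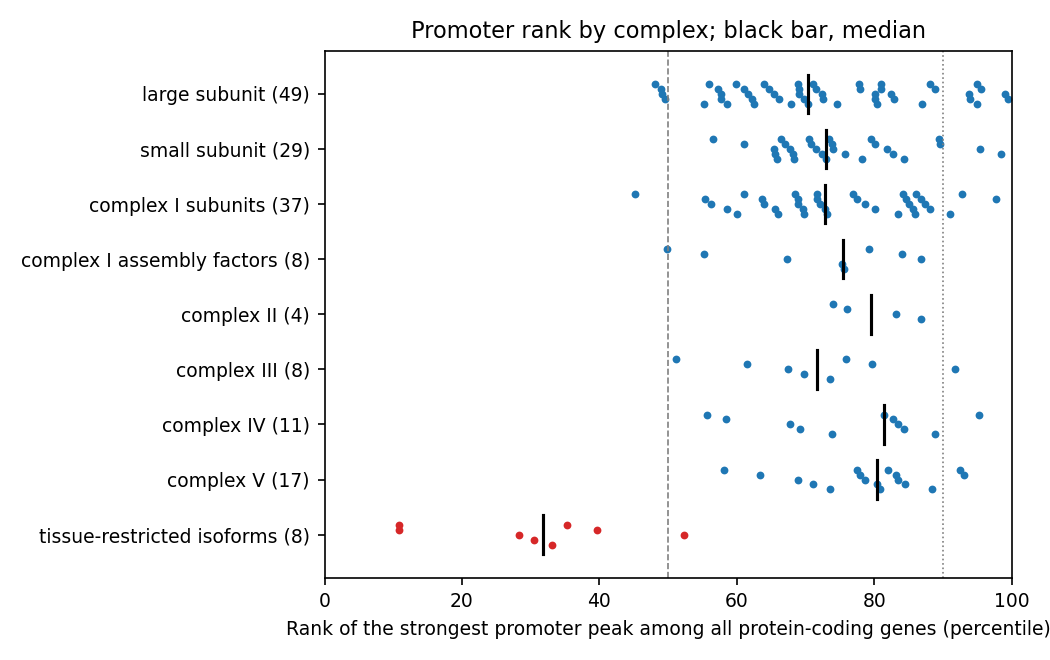
Rank of the strongest promoter peak of each member among 21911 protein-coding genes (horizontal, percentile; mean of both replicates), by complex, with the number of genes in brackets. Black bars are medians, and the dashed and dotted lines mark the upper 50% and the top 10% of genes. All groups of constitutive genes overlap, with medians from 70.4 to 81.4, and 1 of the 8 tissue-restricted isoforms passes the dashed line.

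The 8 tissue-restricted isoforms stood apart from their constitutive partners, and each had a lower value than its partner in both libraries or no peak. Cox6b2, a form known from testis, had the strongest promoter of the 8, with 68 in replicate 1 and 125 in replicate 2 at chr7:4753036-4753185, over its start. Its partner Cox6b1 had 89 and 140. Cox7a1, of heart and skeletal muscle, had 31 and 92 at chr7:30184056-30184205, -13.5 bp from its start, and its partner Cox7a2 had 116 and 148. At these 2 genes a peak in both libraries lay directly on the start of a gene named for another tissue.

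The other shared peaks among the isoforms lay inside the genes, away from the start. Ndufa4l2, known as a gene induced by low oxygen and expressed in pericytes, had 22 and 68 from a peak centred 763.5 bp downstream of its only start. Cox8c, of testis, had 29 and 46 from a peak 914.5 bp downstream. Their partners Ndufa4 and Cox8a had 84 and 141 and 110 and 144. Ndufa4 carries a complex I name but is now placed in complex IV.

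The remaining 4 isoforms had no peak shared by both libraries. Cox6a2, of heart and skeletal muscle, had a peak of 11 in replicate 1 alone, and Cox4i2, of lung and pericytes, had a peak of 59 in replicate 2 alone. Cox7b2, of testis, and Cox8b, of muscle and brown fat in rodents, had no promoter peak in either library, a state they shared with 21.6% of all genes. The partners Cox6a1, Cox4i1, Cox7b and Cox8a were open with values of at least 73 in replicate 1 and 134 in replicate 2.

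Short marker lists for tissues where these forms are known, lung not among them, were set beside the 69% of all genes. These lists are too small for a share near 69% to be read as a difference. Of the 8 skeletal muscle markers 5 had a shared promoter peak (62.5%), Acta1 and Tnnt3 had none in either library, and of the 5 heart markers 2 did, with no peak at Myh6 in either library. None of the 6 testis germ cell markers had a shared peak, and Acr and Tnp1 had no peak at all. Of the 7 pericyte and smooth muscle markers 2 were shared, but replicate 2 had a peak at all 7 and replicate 1 at 2, the same imbalance as at Cox4i2. For brown fat 1 of 2 markers was shared. A peak in replicate 2 alone also stood at Actc1, Myl7, Sycp3 and Ucp1, and one in replicate 1 alone at Myog, Ddx4, Prm1 and Prm2. Of the open skeletal muscle markers only Des had its strongest shared peak centred within 150 bp of a start (121.5 bp). The others had theirs at -299.5 bp (Mylpf), 814.5 bp (Ckm), 696.5 bp (Myod1) and -1037.5 bp (Tnni2). No open heart or pericyte marker had one centred within 150 bp. Values at the open skeletal muscle markers ran from 69 to 138 in replicate 2. The open pericyte markers Abcc9 and Kcnj8 had 63 and 108 there, and all 7 pericyte markers, open or not, ran from 33 to 108. The part of such cells in the isoform values was not tested.

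The isoforms differed from their partners in CpG content, which is known to go with open promoters in many cell types. In the 1000 bp around the gene's 5′ end, Cox4i1 held 131 CpG and Cox4i2 held 34. Cox6a1 held 96 against 17 in Cox6a2, and Ndufa4 held 62 against 14 in Ndufa4l2. The smallest contrasts were Cox6b1 with 47 against 36 in Cox6b2, and Cox7b with 26 against 24 in Cox7b2. Cox7b was open at 73 and 134 with nearly the same CpG content as Cox7b2, which had no peak. Among other genes with 14 to 36 CpG, the range of the isoforms, 62% had a shared promoter peak, beside 4 of the 8 isoforms.

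The DNA just upstream of 4 such pairs is printed below, a selection from the pairs compared. Each line gives up to 150 bases that end at the gene's start and lie outside annotated exons, read 5′ to 3′ on the strand of the gene from GRCm38.p6 (mm10), with every CG in capitals.
Cox6a1, chr5:115348982-115349129, minus strand: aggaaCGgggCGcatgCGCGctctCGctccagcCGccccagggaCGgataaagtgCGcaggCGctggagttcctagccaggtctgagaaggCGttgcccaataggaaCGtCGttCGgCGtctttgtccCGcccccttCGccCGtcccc
Cox6a2, chr7:128206388-128206537, minus strand: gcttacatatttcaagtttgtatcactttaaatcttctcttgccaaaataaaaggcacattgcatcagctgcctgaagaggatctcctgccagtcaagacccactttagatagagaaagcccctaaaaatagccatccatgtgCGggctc
Cox8a, chr19:7217617-7217766, minus strand: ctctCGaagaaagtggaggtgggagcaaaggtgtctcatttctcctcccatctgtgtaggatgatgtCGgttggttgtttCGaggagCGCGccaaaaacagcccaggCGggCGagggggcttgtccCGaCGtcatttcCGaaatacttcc
Cox8b, chr7:140900447-140900596, minus strand: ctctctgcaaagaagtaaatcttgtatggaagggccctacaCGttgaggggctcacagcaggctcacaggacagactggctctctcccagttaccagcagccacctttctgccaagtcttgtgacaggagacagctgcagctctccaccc
Cox7a2, chr9:79759879-79760028, minus strand: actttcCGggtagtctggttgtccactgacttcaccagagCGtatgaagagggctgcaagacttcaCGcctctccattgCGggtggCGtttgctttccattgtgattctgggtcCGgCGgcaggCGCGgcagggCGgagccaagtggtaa
Cox7a1, chr7:30183994-30184143, plus strand: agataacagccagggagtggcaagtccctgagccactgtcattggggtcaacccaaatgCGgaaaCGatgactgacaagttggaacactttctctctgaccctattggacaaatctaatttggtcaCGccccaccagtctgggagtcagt
Cox7b, chrX:106015550-106015699, plus strand: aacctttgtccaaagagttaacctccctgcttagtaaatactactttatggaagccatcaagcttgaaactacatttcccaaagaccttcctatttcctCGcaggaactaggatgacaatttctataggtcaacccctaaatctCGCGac
Cox7b2, chr5:71548206-71548355, minus strand: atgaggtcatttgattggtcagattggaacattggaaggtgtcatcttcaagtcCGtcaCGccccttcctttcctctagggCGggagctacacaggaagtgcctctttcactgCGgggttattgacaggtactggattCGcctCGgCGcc

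Capitals are dense in Cox6a1, with 17 CG in 148 bases, and nearly absent in Cox6a2 and Cox8b, with 1 each. Cox8a and Cox7a2 held 10 each, and Cox7a1 held 3 while carrying a shared peak that covers the end of the printed stretch. The Cox7b pair goes the other way: the open Cox7b held 3 CG and Cox7b2, with no peak in either library, held 7. In 3 of these 4 printed pairs the more open gene thus held more CG immediately upstream, and Cox7b with Cox7b2 was the exception. Contrasts were smaller in pairs not printed: Cox6b1 held 9 in 150 bases and Cox6b2 7 in 131, Ndufa4 held 7 and Ndufa4l2 3, and Cox8c held 8. Cox4i2, with no shared peak, held 12, more than the open Cox8a or Cox7a2. Cox4i1 had no such stretch outside annotated exons to set beside it.

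**Figure D3:**
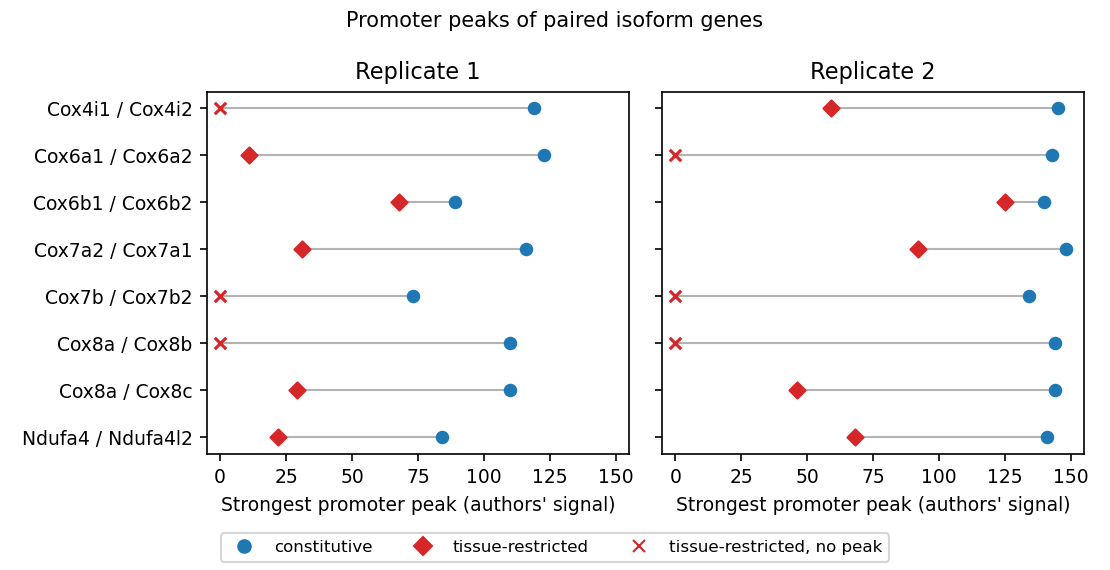
Value of the strongest promoter peak (horizontal, authors' signal) of each constitutive gene (blue) and its tissue-restricted counterpart (red diamond, or a cross where there was no peak) in both replicates. In each pair the constitutive gene is higher, and the smallest gap is at Cox6b1 and Cox6b2, 89 against 68 in replicate 1 and 140 against 125 in replicate 2.

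A single shared promoter peak was more frequent among constitutive members than among other genes, though not clearly so at genes with 1 annotated start. Exactly 1 shared peak within reach of any start was found at 90 of the 163 (55.2%), against 30.6% of all open genes, 31.4% of the CpG-like genes and 35.4% of the cytosolic ribosomal genes. Members and other open genes both had a median of 4 annotated starts. With 2 starts the shares were 19 of 27 members (70.4%) and 39.9% of all open genes, with 4 starts they were 12 of 25 (48%) and 31.9%, and with 1 start 5 of 12 (41.7%) and 39.7%. With 1 start, where the searched window has the same size in every gene, the shares were thus close. Constitutive members are also shorter (median 7.81 kb, against 25.01 kb in open genes), so several starts may span less DNA. The part of this in the counts was not tested. The most peaks stood at Atp5d, which had 6.

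The strongest peak of a constitutive member usually covered or touched its start. Its centre lay within 150 bp of a start in 150 of the 163 genes (92.0%), against 76.8% of all open genes. The share was 83.0% in the open CpG-like genes and 96.3% in the open cytosolic ribosomal genes, above the members. The median distance from the start, in either direction, was 38.5 bp for members and 58.5 bp for all open genes, and in both the typical centre was slightly upstream (medians of -29.5 and -32.5 bp). For the CpG-like and the cytosolic ribosomal genes the median distances were 49.5 and 46.5 bp. Ndufa13 was among the exceptions, with its strongest replicate 2 peak at -692.5 bp. The members' 1000 bp windows held a median of 56 CpG, against 58 in all open genes and 41 in all genes, and the 150 bp of their peaks were 62.7% GC, against 66% in open genes.

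Many members have a neighbour that starts close by and is read in the opposite direction. A protein-coding gene started within 1000 bp upstream on the other strand at 55 of 171 members, all of them constitutive (33.7% of those), against 9.43% of all genes, 16.6% of the CpG-like genes and 15.3% of the cytosolic ribosomal genes. In some pairs both genes serve mitochondria: Mrps11 with Mrpl46, Mrpl43 with Twnk (the helicase of mitochondrial DNA), Mrps12 with Sars2 (a mitochondrial tRNA synthetase) and Sdhd with Timm8b (a chaperone of protein import). Others face genes of different function, as Mrpl18 does Tcp1, a subunit of the cytosolic chaperonin, Ndufa7 does Rps28, a cytosolic ribosomal gene, and Uqcrq does Gdf9, an oocyte growth factor. These pairs were chosen after their values were seen.

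A divergent partner went with a higher rank over all genes, and the gap was smaller among the members. Over all genes the median rank was 79.9 with such a partner and 46.0 without, and over the constitutive members it was 76.0 with and 72.7 without. In 63 of the 167 open members (37.7%) the strongest peak was also the strongest of another protein-coding gene, against 17.3% of all open genes, so its value cannot be assigned to either gene. At 2 places both genes of the peak were members. Mrpl47 and Ndufb5 shared chr3:32736836-32736985 with 144 in replicate 2, and Mrpl46 and Mrps11 shared chr7:78783016-78783165 with 140. Members that share a peak are not independent observations.

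The strongest shared peak of each gene was searched, over its 150 bp and on both strands, for exact copies of short consensus motifs. ACTTCCGG stood for the ETS factors that include GABP, AAGATGGCG for YY1, and a palindrome of 10 bases, shown in capitals in the NRF1 sites printed further on, for NRF1. The NRF1 and YY1 letters were more frequent among members than elsewhere. YY1 letters stood in 13 of the 163 constitutive promoters (7.98%), against 1.66% of all open promoters and 1.74% of the CpG-like ones. NRF1 letters stood in 8 (4.91%), against 1.33% and 1.47%. ETS letters stood in 14 (8.59%), above the 5.96% of all open promoters and close to the 9.04% of the CpG-like ones. At least 1 of these motifs was present in 34 members (20.9%), against 8.71% and 12.0%, so most members matched none of them exactly. The 82 open cytosolic ribosomal genes had a combined share close to that of the members, 19.5%. Their ETS share was higher, at 15.9%, and their NRF1 and YY1 shares were lower, at 1.22% and 2.44%. None of these motifs was in the 4 open isoforms. A match is a description of letters and not of a bound factor.

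Other promoter motifs were as common in members as elsewhere or less so. The SP-family letters GGGCGGG stood in 44 constitutive promoters (27.0%), against 37.6% of all open promoters and 37.6% of the CpG-like ones. AGCCAAT, for NF-Y, stood in 15 (9.20%, against 8.97%), TGACGTCA, the cAMP response element, in 6 (3.68%, against 2.98%), and the E-box CACGTG in 8 (4.91%, against 6.84%). TATAAA stood in 4 (2.45%, against 2.06%). The ZNF143 consensus was found in no member and in 0.457% of all open promoters. An ETS copy within an SP-rich promoter was counted under both, and no motif was masked for another.

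**Figure D4:**
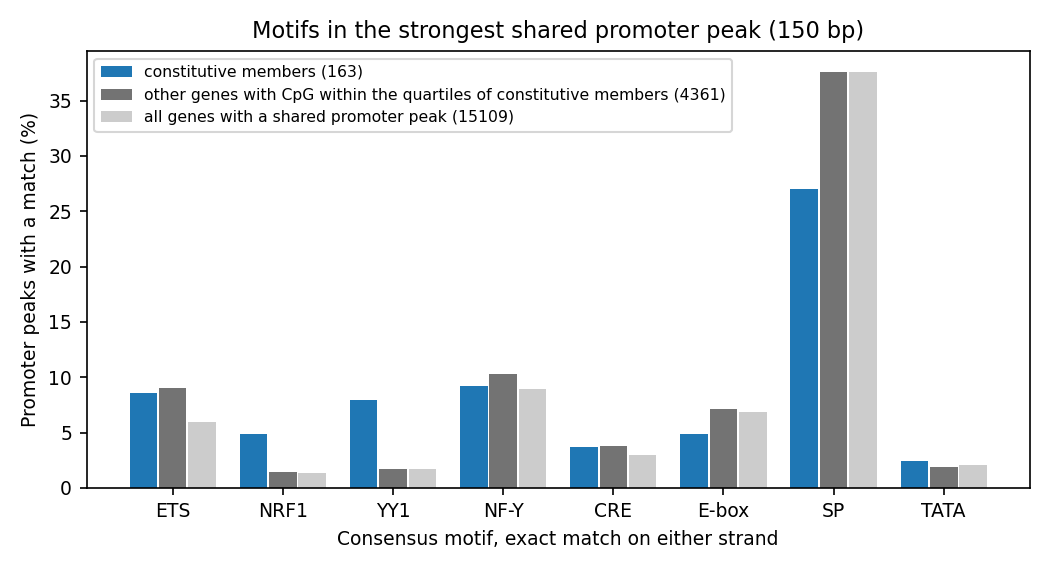
Share of strongest shared promoter peaks (vertical, percent) that hold an exact copy of each motif on either strand, for the 163 constitutive members (blue), CpG-like other genes (dark grey) and all open genes (light grey). The members stand above both backgrounds at NRF1 and YY1 and below both at SP.

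Many of the YY1 letters lay over the start codon, as in the printed sites, which were chosen for that place. Each line below is a 30-base window of GRCm38.p6, read 5′ to 3′ on the strand given, with the motif in capitals. These 5 are YY1 sites on the strand of the gene.
Ndufa9, chr6:126849097-126849126, minus strand: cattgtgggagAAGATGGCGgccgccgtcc
Ndufs4, chr13:114388041-114388070, minus strand: ttgcctacaggAAGATGGCGgcggtctcaa
Uqcrc1, chr9:108936706-108936735, plus strand: cggaagttagAAGATGGCGgcgtccgcagt
Mrps10, chr17:47368894-47368923, plus strand: tcagggcaccAAGATGGCGgcgcgcgcagc
Mrps24, chr11:5707647-5707676, minus strand: cgcgccggcccAAGATGGCGtggtccgcgt

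Of 14 YY1 sites in 13 member promoters, 10 read on the strand of the gene (71.4%), close to the 69.5% of sites over all open genes. In 9 of these 10 the ATG inside the capitals was the annotated start codon. Over all open genes the same held for 80 of 180 gene-strand sites (44.4%). The median site began 3 bp downstream of the nearest start, and 9 of the 14 began 0 to 50 bp downstream (64.3%, against 45.2% of the sites of all open genes). The rest ranged from the pair in Uqcrh, at -297 and -343 bp, to the site of Mrpl46 at 58 bp. In Ndufa9, Ndufs4 and Mrps10, for instance, the first bases of the protein-coding sequence are thus the last bases of the motif. The site of Mrpl46 is also the site counted for Mrps11, its divergent partner, where it reads on the other strand.

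Most ETS and NRF1 sites lay upstream instead, 10 of 14 and 6 of 8. The other 4 ETS sites (28.6%) began 0 to 50 bp downstream, against 21.5% of the ETS sites of all open genes. The 14 ETS sites had a median position 13.5 bp upstream of the start. Of them 8 (57.1%) were on the strand of the gene, against 43.9% over all open genes. The 8 NRF1 sites, whose motif reads alike on both strands, had a median of 23 bp upstream. They were widely spread, with quartiles of -119.5 and 2.5 bp. The first 4 lines below are ETS sites and the last 4 are NRF1 sites.
Ndufs1, chr1:63176821-63176850, minus strand: aggcctcggctACTTCCGGcggaactgcag
Ndufs3, chr2:90904703-90904732, minus strand: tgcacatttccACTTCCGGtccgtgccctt
Mrps27, chr13:99344726-99344755, plus strand: gtggtaggaccACTTCCGGcggaggcgggc
Mrps35, chr6:147042725-147042754, plus strand: ccaggttacacACTTCCGGtcccgccccct
Cox6a1, chr5:115349101-115349130, minus strand: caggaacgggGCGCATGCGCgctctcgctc
Atp5k, chr5:108434430-108434459, minus strand: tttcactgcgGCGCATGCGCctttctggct
Uqcrc1, chr9:108936668-108936697, minus strand: gagccgcgctGCGCATGCGCagagcggagt
Ndufaf5, chr2:140170652-140170681, minus strand: tttctattagGCGCATGCGCcaacgggact

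NRF1 sites stood in 3 of 49 genes of the large ribosomal subunit (Mrpl9, Mrpl32 and Mrpl39). They also stood in 2 of 8 assembly factors of complex I (Ndufaf4 and Ndufaf5). Complexes III, IV and V, with 8, 11 and 17 genes, had 1 each (Uqcrc1, Cox6a1 and Atp5k). None stood in the 37 complex I subunit genes, the 29 small-subunit genes or the 4 genes of complex II. ETS sites stood in 5 of 49 large-subunit and 5 of 29 small-subunit genes. The other 4 were in the respiratory chain (Ndufs1, Ndufs3, Uqcr11 and Atp5a1). YY1 sites stood in 4 of 49 large-subunit genes, 4 of 29 small-subunit genes, 3 of 37 complex I subunit genes and 2 of 8 complex III genes. Only Uqcrc1 held both an NRF1 and a YY1 copy, 1 upstream and 1 over the start, and its peak was among the weaker ones of the members. Among the 3 highest members of each of the 8 groups, Mrpl18 held the ETS letters, Cox6a1 the NRF1 letters and Uqcrh the YY1 letters, and the rest held none of these.

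Shared peaks centred over 1000 bp from any protein-coding start were counted in each gene and 50 kb to either side. Members had a median of 6 such distal peaks (quartiles 3 and 10), while all genes had a median of 7 and open genes one of 9. These medians moved with the library: without replicate 1 they were 11 for members and 11 for all genes, and without replicate 2 they were 21 and 22. At least 1 was found around 167 members (97.7%), against 88.7% of all genes. The 4 with none (2.34%, beside 1.80% of open genes) were Ndufa4, Ndufa9, Uqcrb and Uqcrc1. Member genes are short, with a median length of 7.76 kb against 17.4 kb in all genes and 25.01 kb in open genes, so that their windows were smaller. Per 100 kb of window the medians were 5.75 for members, 5.04 for all genes and 6.09 for open genes, so members lay between these backgrounds. Around the typical gene of either kind the window held 3 other protein-coding genes, so that a distal peak cannot be assigned to the member.

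**Figure D5:**
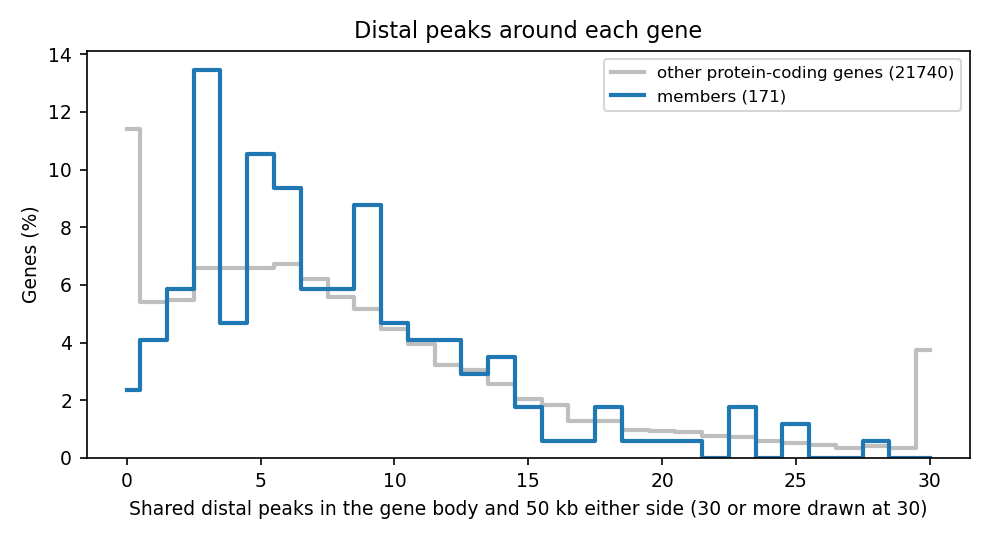
Number of shared distal peaks within each gene or up to 50 kb from its ends (horizontal) and share of genes with that number (vertical, percent), for 171 members (blue) and 21740 other protein-coding genes (grey). The members peak at a few sites per gene with a median of 6, and none has more than 28.

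The members with the most distal peaks differed in where these lay. Mrps23 had 28, of which 1 lay in the gene, and Sdhc had 25 with none in the gene. Ndufa4l2, an isoform with a weak promoter peak, had 25 with 1 in the gene. Mrps27, Mrps28 and Ndufaf2 tied at 23 and held 13, 11 and 12 of them within the gene, unlike Sdhc. In all 131 of 1328 pairs of a member and a distal peak (9.86%) lay inside the member, and 52 members had such a peak.

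The distal peaks around members had somewhat higher values than distal peaks at large. Their median replicate 2 value was 69 (quartiles 48 and 98), against 60 (44 and 84) for all 140604 shared distal peaks, a difference that was not tested. The larger set was not limited to 50 kb around genes, and distal peaks around other genes were not summarised apart. The values are therefore not matched for nearness to genes. The strongest lay near Atp5d, at chr10:80159896-80160045, with 128 in replicate 1 and 148 in replicate 2. Within Mrps27 a peak at chr13:99353276-99353425 had 114 and 144, above the medians of the small-subunit promoters (97 and 141). The isoforms without a promoter peak had distal peaks as well: near Cox8b the strongest distal peak had 52 and 106, and near Cox7b2 it had 59 and 116.

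Genes of the wider mitochondrial programme were mostly open as well. All 25 listed genes for transcription and replication of mitochondrial DNA had a shared promoter peak, with medians of 105 and 141. The highest were Tfb2m, a mitochondrial transcription factor, with 119 and 148, Esrra, a nuclear receptor of energy metabolism, with 127 and 147, and Yy1 with 127 and 146. Some genes of this list lay below the constitutive members: Mterf1a, a mitochondrial termination factor, had 8 and 50, Ppargc1a, a coactivator of mitochondrial biogenesis, had 30 and 93, and Esrrb had 39 and 122. These low genes were chosen after their values were seen. Of 48 listed subunits and assembly factors whose symbols fall outside the rule, 46 were open (medians 106.5 and 143). The highest were Atpaf2, an assembly factor of the ATP synthase, with 131 and 150, Bcs1l, of complex III, with 127 and 149, and Sdhaf3, of complex II, with 122 and 149. The 2 without a peak in either library were Cyct, the testis form of cytochrome c, and Sdhaf1, an assembly factor of complex II whose 1000 bp window held 4 CpG.

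Copies of member genes elsewhere in the genome mostly had no peak. Of 17 processed pseudogenes that carry a member's name, 12 had no peak near their start in either library, 2 had one in replicate 1 alone and 1 in replicate 2 alone. The same share over processed pseudogenes at large was not counted, so these numbers have no background. The 2 with a shared peak were Ndufs6b, with 39 and 93, and Uqcrh-ps1, with 13 and 47, below the range of the constitutive members in both libraries. Ndufb1-ps, annotated as a noncoding transcript of a bidirectional promoter, had 66 and 131. Its start lay 61 bp from that of a protein-coding gene.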

How the data were processed

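Per the labels, the files are on mm10; the sources used here name no aligner or peak caller. The authors deposited 150 bp peaks per replicate, each with a signal value whose scaling is not stated, and hotspots with a −log10 q value, used only in place of peaks as an alternative. Here, peaks overlapping by at least 1 bp between replicates were called shared and described by the replicate 2 interval. Values were ranked within each replicate. Starts came from GENCODE release M21 and sequence from GRCm38.p6 (RefSeq). Each gene was described by its strongest peak within 1000 bp of any start. Genes are not replicates, so counts and medians stand beside those of all genes, with no test. CpG-like genes are other genes with CpG counts between the constitutive members' quartiles. In each complex the 3 highest and 2 lowest members were named, with all isoforms, members without a shared peak, the 5 with most distal peaks (and any tied with the last) and the 3 highest of each further list. A complex I gene that this rule names is not reported here. Members, lists and motifs were chosen with earlier results of these data known. Programs were tested on simulated data and used Python 3.11.15, pandas 2.3.3, pysam 0.24.0 and matplotlib 3.10.9.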

Additional observations from a re-analysis of the deposited data

How the results depend on the processing

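No paired analysis was possible because the series has 1 group. The count of members with a shared promoter peak (167) ran from 164 to 168 over windows of 500 and 2000 bp, gene 5′ ends alone, a stricter overlap, the stronger peaks, hotspots and each replicate alone; a peak in each replicate whether or not they overlap, an alternative chosen after seeing the data, gave 167. With 5′ ends alone Cox7a2l, Mrpl35 and Mrps24 were lost, and with 500 bp Cox8c, Ndufa4l2 and Ndufa13. The isoform count (4) fell to 2 with 500 bp and was 3 to 5 otherwise. Without 1 of the replicates the median percentile (98.48) was 97.92 to 99.17, the number of members in the top 10% of genes (16) was 18 to 25, the median number of distal peaks (6) was 11 to 21, and the isoform count was 5 in both cases. The value of 25 and the value of 21 were both reached without replicate 2, where all genes had a distal median of 22. The count of promoters with an ETS, NRF1 or YY1 copy (34) was 40 without replicate 2 and 48 in 300 bp, where all genes had 12.9%. Why these values moved was not tested. Read depth is unknown, so a missing peak may lie under the limit of detection.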
